A study of Homo sapiens with 50 samples.

Results

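Glutathione S-transferases are described here by 10 genes, GSTA1, GSTA2, GSTA4, GSTM2, GSTM3, GSTM4, GSTP1, GSTK1, GSTO1 and MGST1, among 79112 genes and unnamed loci in the table. They were taken by gene name and all 10 were present. Of the 10 members, 7 reached 1 FPKM in at least 5 libraries and were tested, and GSTM2, GSTM3 and GSTP1 did not. FPKM is a fragment count scaled by transcript length and by the size of the library, so levels of different genes can be set side by side.

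The cells were HepaRG, an established human liver line bought already differentiated, in cultures that hold hepatocyte-like and biliary-like cells. From day 8 to day 14 they were kept in test medium with 2% serum and 1% DMSO, which every group shared, and received quizalofop-p-ethyl, isoxaflutole or mesotrione, 3 herbicide active ingredients, at 0.1 µM, 10 µM or 1 mM, or no herbicide (Control). Quizalofop-p-ethyl inhibits acetyl-CoA carboxylase in plants, and isoxaflutole and mesotrione inhibit hydroxyphenylpyruvate dioxygenase, an enzyme of tyrosine breakdown. Each of the 10 groups had 5 libraries; replicate 5 of quizalofop-p-ethyl 10 µM was left out, so that group has 4 libraries and 49 were used. Replicate numbers follow the order of deposit and pair no libraries. The labels do not state whether the libraries of a group are independent cultures, and a p-value here therefore reflects nothing beyond library-to-library spread, which could be technical.

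Glutathione S-transferases join the thiol of glutathione to reactive, fat-soluble molecules, and several also reduce peroxides. The conjugates leave the cell through transporters and are trimmed to mercapturic acids for excretion. In human liver the alpha class, with GSTA1 and GSTA2, is the main cytosolic form; the mu class (GSTM genes) and the pi enzyme GSTP1 are related cytosolic enzymes, GSTP1 being known more from bile duct cells and tissues outside the liver than from hepatocytes. GSTK1 works in mitochondria and peroxisomes, GSTO1 reduces oxidised ascorbate and arsenic compounds, and MGST1 sits in the membranes of the endoplasmic reticulum and mitochondria.

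GSTA1 and GSTA2 had the largest differences of the members and are neighbours on the minus strand of chromosome 6, GSTA1 at chr6:52791664-52803910 and GSTA2 at chr6:52750089-52763569 (GRCh38, from the table). Their promoters are shown because both genes fell with 1 herbicide and the sequences differ in few bases. RefSeq promoters of GRCh38.p14, with 250 bases before and 50 after the start site, were matched by symbol for 10 of 10 members. Over 300 bases the pair differ at 12 positions, 7 of them before the start site, an identity of 96%; capitals mark the differing bases. The windows are chr6:52803767-52804066 for GSTA1 and chr6:52763426-52763725 for GSTA2, minus strand.
GSTA1 promoter: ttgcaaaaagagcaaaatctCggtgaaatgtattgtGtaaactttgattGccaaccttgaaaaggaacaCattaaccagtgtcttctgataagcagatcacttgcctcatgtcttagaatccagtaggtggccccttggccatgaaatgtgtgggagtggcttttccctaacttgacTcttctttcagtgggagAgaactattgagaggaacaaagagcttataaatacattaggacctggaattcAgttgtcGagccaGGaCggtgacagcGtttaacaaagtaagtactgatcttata
GSTA2 promoter: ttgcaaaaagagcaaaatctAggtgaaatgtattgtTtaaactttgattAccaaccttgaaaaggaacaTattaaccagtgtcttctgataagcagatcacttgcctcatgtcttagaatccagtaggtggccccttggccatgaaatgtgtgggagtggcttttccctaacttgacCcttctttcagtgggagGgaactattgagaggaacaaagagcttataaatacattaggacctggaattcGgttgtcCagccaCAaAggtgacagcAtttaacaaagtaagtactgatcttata

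The transcripts are as alike as the promoters, which bears on how reads were shared between the pair. The coding sequences, 669 bases in each, differ at 22 positions and are 96.7% identical, and the longest identical run has 209 bases, longer than a 75 bp read. The first 300 coding bases of the leading transcripts (GENCODE v29, exons 2 to 5, minus strand) are shown, with capitals at the 5 positions where they differ; they lie within chr6:52794239-52799267 for GSTA1 and chr6:52752968-52757947 for GSTA2.
GSTA1 coding: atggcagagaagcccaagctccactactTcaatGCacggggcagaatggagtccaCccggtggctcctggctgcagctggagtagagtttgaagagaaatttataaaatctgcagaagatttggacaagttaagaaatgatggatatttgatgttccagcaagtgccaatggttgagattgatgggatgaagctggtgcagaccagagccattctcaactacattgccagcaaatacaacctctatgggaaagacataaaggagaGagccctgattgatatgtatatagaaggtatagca
GSTA2 coding: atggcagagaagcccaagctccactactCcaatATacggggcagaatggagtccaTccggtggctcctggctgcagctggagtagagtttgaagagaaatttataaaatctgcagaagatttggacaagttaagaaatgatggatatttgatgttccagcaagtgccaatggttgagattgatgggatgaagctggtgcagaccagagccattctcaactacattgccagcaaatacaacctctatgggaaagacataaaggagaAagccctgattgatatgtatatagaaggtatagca

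Of all windows the length of 1 read, 15.9% of the GSTA1 transcript and 12.1% of the GSTA2 transcript also occur in another alpha or mu class transcript. The share was 38.5% for GSTM2, 9.12% for GSTM4, which overlaps the GSTM2 gene on chromosome 1, and 0% for GSTA4. Values of GSTA1, GSTA2, GSTM4 and GSTM2 are therefore uncertain as to which copy the fragments came from. The letters TGACNNNGC, the core of the antioxidant response element bound by NRF2, were searched on both strands and do not occur in either the GSTA1 or the GSTA2 promoter; they occur in those of GSTA4, GSTO1 and GSTP1, in 1 of 3 for MGST1, and in 13.3% of all 35116 promoters. A second string that was searched, GTTAAT, occurs in the promoters of GSTA1 and GSTA2 and in all but 1 of the 3 for MGST1. It occurs in no other member's promoter and in 6.88% of all promoters. Both searches covered only 250 bases before and 50 after the start site. A match in letters is not a measured binding site.

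In Control cells GSTA1 was the most abundant member by length-scaled level, with 400 ± 154 FPKM (SD, n = 5), and MGST1 followed with 153 ± 13.3 FPKM. GSTK1 averaged 106 ± 4.35, GSTO1 80.7 ± 2.13 and GSTA2 67.6 ± 20 FPKM. The ranges of GSTO1 (78.5 to 82.9 FPKM) and GSTA2 (39.8 to 89.3 FPKM) overlap, so their order is not resolved, while each of the other neighbours in this order had separate ranges. GSTM4 stood at 26.2 ± 1.98 FPKM and GSTA4, the form specialised for the lipid peroxidation product hydroxynonenal, at 3.42 ± 1.02 FPKM. GSTA1 made up 46.4% ± 10.4 of the summed FPKM of the 10 members in Control.

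**Figure D1:**
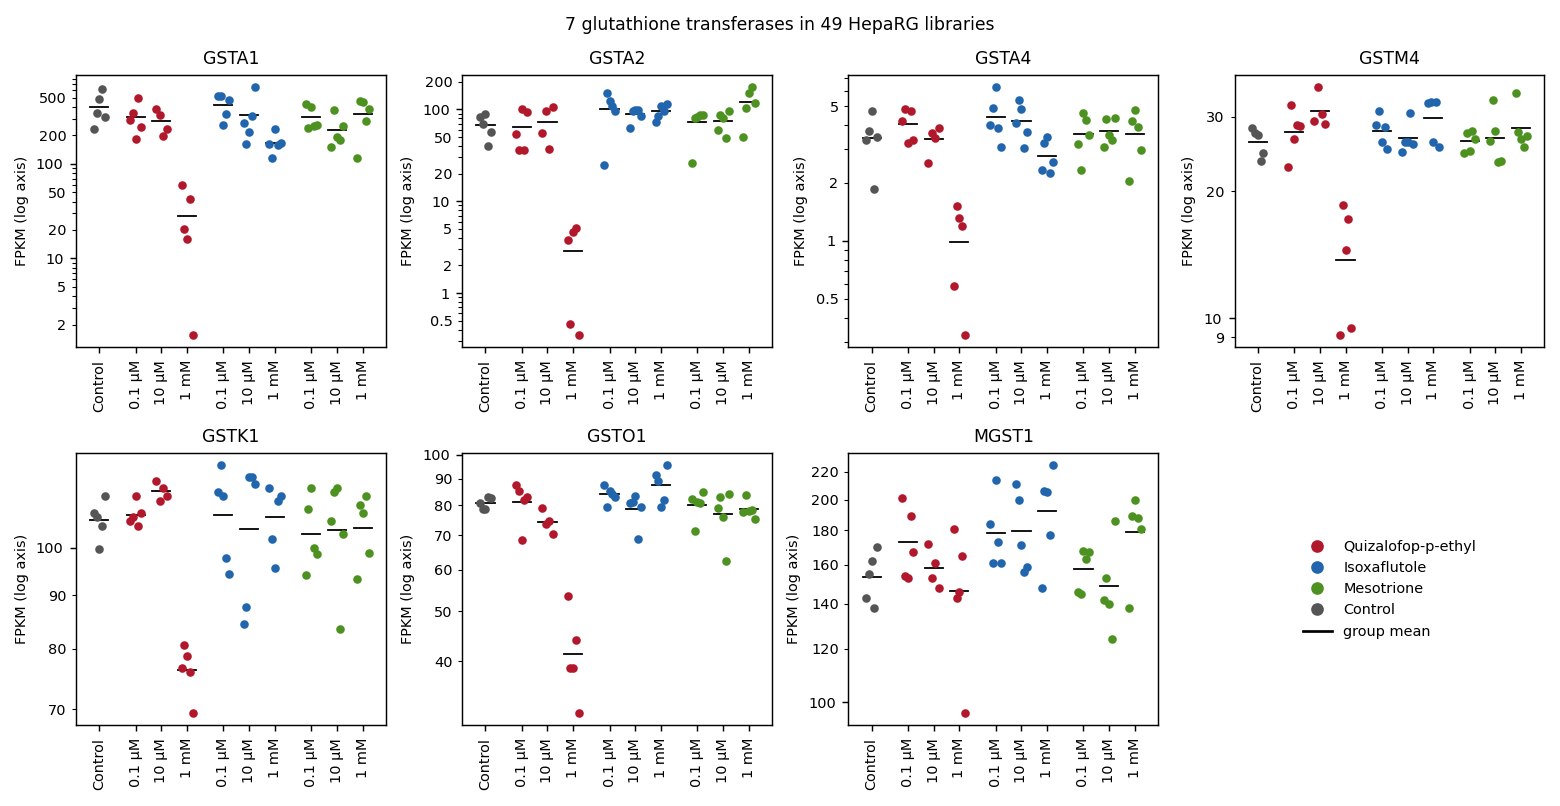
FPKM of the 7 tested members in each of 49 libraries (log axes that differ between panels), with Control first and each herbicide from 0.1 µM to 1 mM; points are libraries and bars are group means. At 1 mM quizalofop-p-ethyl all points except those of MGST1 lie below the Control points, and in the isoxaflutole and mesotrione 1 mM groups the points of each member overlap those of Control.

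With quizalofop-p-ethyl at 1 mM, 6 of the 7 tested members were lower than in Control and none was higher. In this comparison 32.7% of 24222 features passed the threshold in either direction and 19.8% passed it as lower, against which the 6 members stand; the threshold throughout is a Benjamini-Hochberg adjusted p under 0.05 in limma on log2(FPKM + 1), over all features tested. The same 6 had no overlap between their treated and Control libraries, which was so for 23.9% of all features. The median log2 fold change of the 7 tested members was -0.97, against -0.08 over all features.

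GSTA1 and GSTA2 had the largest log2 fold changes of the tested members. GSTA1 read 59.2, 20.3, 16, 42.8 and 1.56 FPKM in the quizalofop-p-ethyl 1 mM libraries, against 232, 345, 490, 620 and 314 FPKM in Control. Every treated library lay below every Control library, and replicate 5 was far below the other treated ones. The log2 fold change was -4.32 ± 0.48 (SE; adjusted p = 5.77e-10, limma), and -3.6 without replicate 5 (adjusted p = 3.25e-10).

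GSTA2 read 3.75, 0.465, 4.59, 5.11 and 0.352 FPKM at 1 mM, against 82.6, 69.8, 89.3, 39.8 and 56.7 FPKM in Control. Replicates 2 and 5 were the low ones, and no treated library came near the lowest Control library. GSTA2 had a log2 fold change of -4.38 ± 0.42 (adjusted p = 1.49e-11), and -5.11 with a pseudocount of 0.1 in place of 1. GSTA4, also alpha class, read 0.58, 1.52, 1.32, 1.19 and 0.326 FPKM at 1 mM, against 3.35, 3.72, 4.7, 1.86 and 3.46 FPKM in Control. The groups were separate by a small gap, with replicates 1 and 5 lowest, and the log2 fold change was -1.16 ± 0.18 (adjusted p = 1.85e-06), or -1.8 with the pseudocount of 0.1.

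The mu class member GSTM4 read 9.13, 18.5, 14.5, 17.2 and 9.48 FPKM at 1 mM, against 28.2, 27.5, 27.1, 23.6 and 24.6 FPKM in Control. All treated libraries were lower, replicates 1 and 5 most of all, and the log2 fold change was -0.93 ± 0.12 (adjusted p = 4.49e-08). The omega enzyme GSTO1 read 53.4, 38.9, 38.9, 44 and 31.8 FPKM at 1 mM, against 80.8, 78.6, 78.5, 82.9 and 82.7 FPKM in Control. Its Control libraries were nearly level, and the log2 fold change was -0.97 ± 0.08 (adjusted p = 6.15e-13).

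GSTK1 changed least of the members that passed. It read 76.7, 80.6, 78.7, 76 and 69.4 FPKM at 1 mM, against 108, 107, 99.7, 105 and 112 FPKM in Control. The groups were separate and tight, with a log2 fold change of -0.47 ± 0.08 (adjusted p = 7.84e-06). For GSTK1 and GSTO1 the leading transcript took a varying part of the gene: ENST00000358406 held 61.5% ± 35.2 of GSTK1 at 1 mM and 53.9% ± 29.8 in Control, and ENST00000369713 held 73.9% ± 24 of GSTO1 at 1 mM and 51.6% ± 19.3 in Control. With 1 leading transcript per gene in place of the sum, neither passed (log2 fold change -0.33, adjusted p = 0.727 for GSTK1, and -0.43, adjusted p = 0.388 for GSTO1).

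MGST1, the membrane-bound form, did not pass. It read 181, 143, 146, 165 and 96.3 FPKM at 1 mM, against 143, 155, 162, 138 and 170 FPKM in Control. The ranges overlap and replicate 5 was the lowest of all 49 libraries. The log2 fold change was -0.09 with a 95% interval of -0.35 to 0.16 (adjusted p = 0.624), and 0.05 without replicate 5. MGST1 took 47.2% ± 0.98 of the summed FPKM of the 10 members at 1 mM, against 18.7% ± 3.46 in Control, and GSTA1 took 8.07% ± 5.78, against 46.4% ± 10.4. The sum itself was 310 ± 66.1 FPKM at 1 mM, against 839 ± 139 FPKM in Control.

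**Figure D2:**
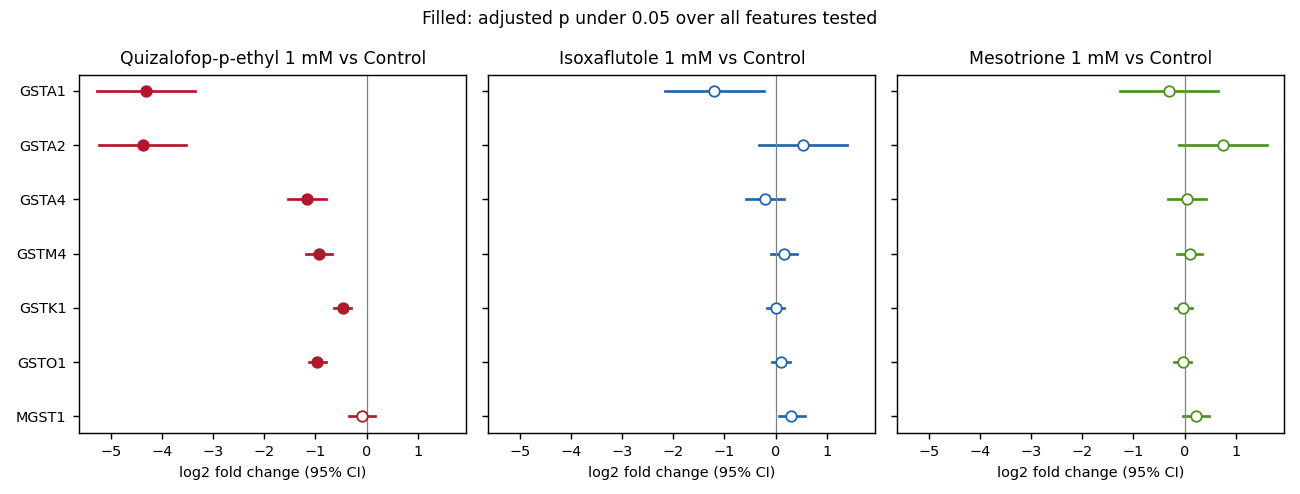
Log2 fold change of each tested member at 1 mM of each herbicide against Control (horizontal axis), with 95% confidence intervals; filled points passed an adjusted p of 0.05 over all features. Filled points occur for quizalofop-p-ethyl alone among the 3 panels, where GSTA1 and GSTA2 lie near -4.3 and -4.4 and MGST1 near 0.

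Isoxaflutole at 1 mM moved no tested member past the threshold in limma, where 2.42% of all features passed, and mesotrione at 1 mM none, where 0.879% passed. At an unadjusted p under 0.05 the counts were 2 for isoxaflutole, GSTA1 and MGST1, and 0 for mesotrione. At that cut 3056 of all 24222 features lay for isoxaflutole and 2268 for mesotrione. No member was without overlap between treated and Control libraries, a condition that 4.86% of features met for isoxaflutole and 3.15% for mesotrione. GSTA1 read 164, 115, 235, 160 and 166 FPKM with isoxaflutole 1 mM and 115, 466, 448, 286 and 380 FPKM with mesotrione 1 mM, against the Control values above. All isoxaflutole libraries but 1 lay below all Control libraries and that 1, at 235 FPKM, was just above the lowest Control library at 232 FPKM; the log2 fold change was -1.2, with a 95% interval of -2.17 to -0.23 (adjusted p = 0.237).

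GSTA2 had a positive log2 fold change that did not pass with either herbicide. It read 73.9, 85.1, 109, 96.5 and 116 FPKM with isoxaflutole 1 mM and 50.5, 105, 151, 176 and 117 FPKM with mesotrione 1 mM, with log2 fold changes against Control of 0.54 (95% interval -0.32 to 1.39, adjusted p = 0.668) and 0.76 (-0.1 to 1.61, adjusted p = 0.614). MGST1 averaged 192 ± 30 FPKM with isoxaflutole 1 mM, 179 ± 23.8 FPKM with mesotrione 1 mM and 153 ± 13.3 FPKM in Control (SD, n = 5 each), and its log2 fold changes were 0.31 (adjusted p = 0.245) and 0.22 (adjusted p = 0.636). For GSTM4, GSTK1 and GSTO1 the intervals under both herbicides ran from -0.21 to 0.42 at their widest, so changes as large as those of quizalofop-p-ethyl lie outside them.

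GSTA2 as a share of GSTA1 plus GSTA2 is given as a description, with no test. It was 31.1%, 42.6%, 31.6%, 37.7% and 41% with isoxaflutole 1 mM, 30.4%, 18.4%, 25.2%, 38.2% and 23.5% with mesotrione 1 mM, and 26.3%, 16.8%, 15.4%, 6.03% and 15.3% in Control. The isoxaflutole libraries were all above the Control libraries, and the mesotrione libraries overlapped them. The 2 genes share reads, and the share rests on how the authors' program assigned them. With quizalofop-p-ethyl 1 mM the share ran from 2.24% to 22.3%.

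A large part of the locus had no gene name. The assembly joined GSTA1, GSTA2 and their neighbours into 1 locus with 7 unnamed transcripts, 4 of which span both genes, the leading one at chr6:52739526-52803980 with 7 exons and a mean of 121 FPKM over 49 libraries. Unnamed transcripts averaged 12.8 ± 10.5 FPKM with quizalofop-p-ethyl 1 mM, 334 ± 115 FPKM with isoxaflutole 1 mM, 350 ± 121 FPKM with mesotrione 1 mM and 282 ± 42.7 FPKM in Control. They made up 32.1% ± 16.7, 54.7% ± 12.1, 44.7% ± 11.6 and 38.7% ± 9.54 of the locus in the same order. The whole locus read 77.4, 27.4, 49.7, 60.7 and 3.1 FPKM with quizalofop-p-ethyl 1 mM, against 599, 749, 870, 875 and 658 FPKM in Control. As 1 feature it had a log2 fold change of -4.58 (adjusted p = 2.03e-13), while isoxaflutole 1 mM gave -0.32 (95% interval -1.09 to 0.44) and mesotrione 1 mM 0.06 (-0.71 to 0.83). Taking the locus whole was chosen after its transcripts were seen.

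**Figure D3:**
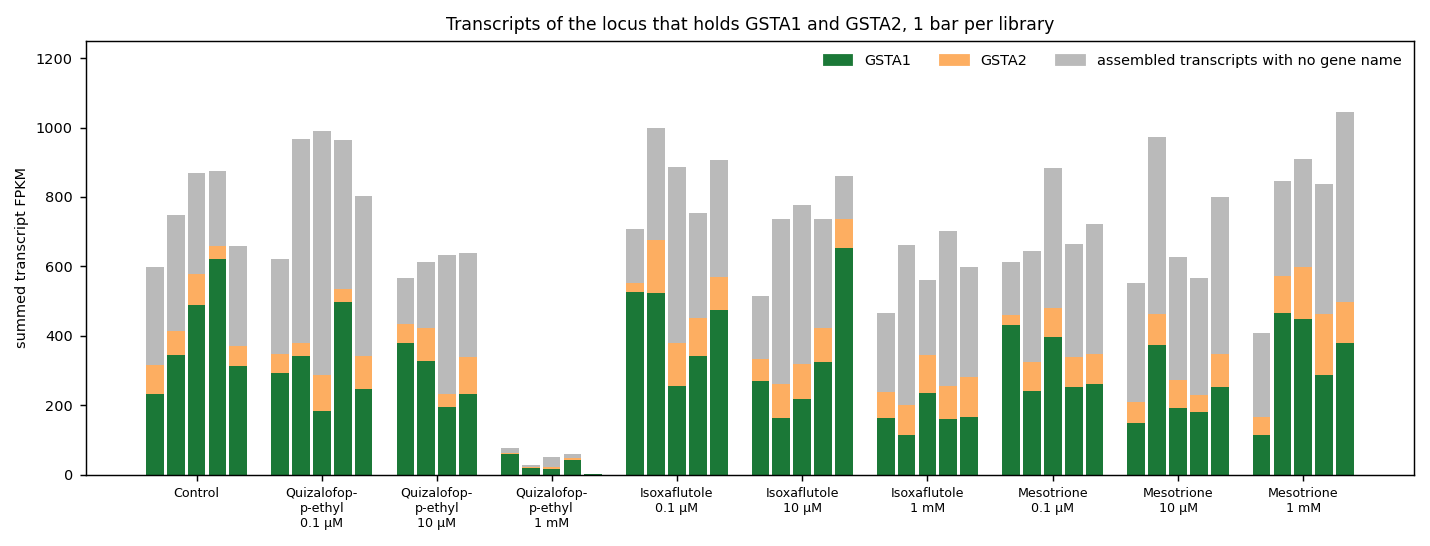
Summed transcript FPKM of the locus that holds GSTA1 and GSTA2, 1 bar per library in 10 groups, split into GSTA1, GSTA2 and transcripts with no gene name. The 5 quizalofop-p-ethyl 1 mM bars reach 3.1 to 77.4 FPKM and the 5 Control bars 599 to 875 FPKM, and the split within a bar varies from library to library in every group.

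Set against the other herbicides at the same 1 mM and the same exposure time, quizalofop-p-ethyl gave lower values for all 7 tested members than isoxaflutole (29.7% of features passed in either direction) and for 6 of 7 than mesotrione (30.2% passed); 3 pairs of herbicides were compared, each with adjustment over all features. The log2 difference between quizalofop-p-ethyl and isoxaflutole was -4.92 for GSTA2, -3.12 for GSTA1, -1.1 for GSTM4, -1.08 for GSTO1, -0.95 for GSTA4 and -0.48 for GSTK1. For MGST1 it was -0.41 (95% interval -0.66 to -0.15, adjusted p = 0.0108), with overlapping libraries, and -0.26 without replicate 5 of quizalofop-p-ethyl (adjusted p = 0.0938), where the call was lost. Against mesotrione the log2 differences were -5.14 for GSTA2, -4.01 for GSTA1, -1.21 for GSTA4, -1.03 for GSTM4, -0.93 for GSTO1 and -0.45 for GSTK1, and that of MGST1 was -0.31 (adjusted p = 0.0577), which did not pass.

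Isoxaflutole and mesotrione, the pair that share a target enzyme, differed at 1 mM in none of the 7 members (0.256% of features passed). At an unadjusted p under 0.05 in limma there were 0 members and 1628 of all 24222 features. The widest interval was that of GSTA1, with a log2 difference of -0.89 and bounds of -1.86 and 0.07, so a difference of up to that size lies within the interval. GSTK1 was the narrowest, with a log2 difference of 0.04 and bounds of -0.13 and 0.2.

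No member passed at the lower doses. In each of the 6 comparisons at 0.1 µM and 10 µM, 0 of 7 members passed in limma and 0 had an unadjusted p under 0.05. Of all features 0.00826% passed for quizalofop-p-ethyl 10 µM and 0% in the other 5. From 735 to 1212 of the 24222 features had an unadjusted p under 0.05 in these comparisons. The intervals do not show that the alpha members were level with Control: GSTA1 averaged 230 ± 88.8 FPKM with mesotrione 10 µM and 400 ± 154 FPKM in Control, a log2 fold change of -0.79 with a 95% interval of -1.75 to 0.18. The intervals of GSTA2 at these doses reached as far as -1.01 and 1.28, and those of the other 5 tested members stayed between -0.39 and 0.67. With quizalofop-p-ethyl, GSTA1 averaged 313 ± 119, 284 ± 84.3 and 28 ± 22.9 FPKM at 0.1 µM, 10 µM and 1 mM (n = 5, 4 and 5). GSTA2 averaged 64.3 ± 31.4, 73.4 ± 32.6 and 2.85 ± 2.28 FPKM, and GSTO1 81.1 ± 7.44, 74.4 ± 3.61 and 41.4 ± 7.98 FPKM over the same doses. For these 3 genes the libraries at 0.1 µM and 10 µM overlapped each other and those at 1 mM lay below both. GSTM4 averaged 31 ± 2.93 FPKM at 10 µM quizalofop-p-ethyl, with a log2 fold change of 0.23 (95% interval -0.03 to 0.5) that did not pass. Its libraries (28.9 to 35.3 FPKM, n = 4) were all above those of Control (23.6 to 28.2 FPKM, n = 5). It was the 1 tested member without overlap in this comparison, and the other 5 low-dose comparisons had 0. The share of all features without overlap was not counted at these doses, so this is not read as a rise.

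Comparing 1 mM with 10 µM of the same herbicide uses no Control library. For quizalofop-p-ethyl 6 of 7 members were lower at 1 mM (31.2% of features passed), by -4.43 log2 for GSTA2, -3.86 for GSTA1, -1.16 for both GSTA4 and GSTM4, -0.85 for GSTO1 and -0.56 for GSTK1, and MGST1 had -0.14 (adjusted p = 0.473). Isoxaflutole and mesotrione had 0 members past the threshold between these doses (2.84% and 0.97% of features passed). One member in each had an unadjusted p under 0.05, GSTA4 for isoxaflutole with a log2 fold change of -0.45 and MGST1 for mesotrione with 0.27. At that cut 3436 of all 24222 features lay for isoxaflutole and 2373 for mesotrione, so 1 of 7 members does not stand out.

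The 3 members below the filter are given as values. GSTM2 read 0.0782, 0.229, 0.142, 0.199 and 0.223 FPKM with quizalofop-p-ethyl 1 mM, against 0.73, 0.938, 0.897, 0.211 and 0.171 FPKM in Control, and 1.12 FPKM was its highest value in any library. The groups overlap, and 2 Control libraries were as low as the treated ones. In a fit with no filter on low values GSTM2 passed as lower with quizalofop-p-ethyl 1 mM, with a log2 fold change of -0.4 (adjusted p = 0.033, limma). GSTM3 stayed at or below 0.36 FPKM in all 49 libraries, a level at which single fragments count, since 1 fragment makes 0.00722 to 0.0344 FPKM in its leading transcript at the depths estimated here. GSTM3 averaged 0.156 ± 0.132 FPKM with quizalofop-p-ethyl 1 mM and 0.0529 ± 0.0287 FPKM in Control, with overlapping libraries.

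GSTP1, at chr11:67583595-67586660 on the plus strand, was listed at 0 in 43 of 49 libraries, among them all 5 of Control, and its highest value was 0.0746 FPKM, in replicate 1 of isoxaflutole 1 mM. In the GSTP1 transcript ENST00000398606 1 fragment makes 0.0303 to 0.144 FPKM, so the 6 values above 0 lie within or below the range that 1 fragment makes, and 0 in a Control library allows up to 0.127 to 0.269 FPKM at 3 fragments, counting error alone. A listed 0 can also be a failed estimate, and this cannot be settled from the deposited values. In every library of the 1 mM groups and Control the metabolic gene ME1 was at 0. VIM, a stellate or mesenchymal marker, and EPCAM, a marker of the biliary-like cells, were under 0.5 FPKM in the same libraries. The letters of the GSTP1 promoter hold 36 CG pairs, more than most; 88.7% of all promoters have no more. GSTA2 has 1 CG pair, GSTA1 4, and the median promoter 14.

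Markers of hepatocyte-like and biliary-like cells were mostly lower in the group where 6 of the 7 tested members were lower. All 13 hepatocyte markers were lower with quizalofop-p-ethyl 1 mM, with a median log2 fold change of -4.19, beside 5 lower of 7 tested biliary markers. Of all features 19.8% were lower in this comparison. The summed FPKM of the hepatocyte markers was 5460, 1530, 2580, 2130 and 227 at 1 mM, against 19900 to 23500 in Control. The same replicate 5 was lowest as for GSTA1, GSTA2, GSTA4, GSTK1, GSTO1 and MGST1, and GSTM4 was the tested member where it was not. The biliary sum was 87.2 to 190 FPKM at 1 mM, against 672 to 753 FPKM in Control, with EPCAM and CFTR under 1 FPKM in every library of both groups. Albumin, the plasma protein ALB, averaged 945 ± 1040 FPKM at 1 mM and 9420 ± 770 FPKM in Control. Fewer cells of a type and less RNA per cell cannot be told apart in these bulk samples, and the part of either in the fall of the members was not tested.

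Markers of other cells were low throughout. The 5 endothelial markers summed to 0.444 to 1.18 FPKM with quizalofop-p-ethyl 1 mM and 1.82 to 2.41 FPKM in Control. The leukocyte markers PTPRC, CD3E and MS4A1 were under 1 FPKM in every library of both groups; the leukocyte sum of 2.72 to 15.6 FPKM at 1 mM, against 8.75 to 36.2 FPKM in Control, came from CD68, CD14 and LYZ, the last of them also under 1 FPKM in every quizalofop-p-ethyl 1 mM library. The stellate or mesenchymal sum was 15.1 to 26.6 FPKM at 1 mM, against 52.3 to 68.2 FPKM in Control. Of 6 such markers tested 4 were lower and 1 was higher. COL1A2, THY1 and VIM were under 1 FPKM in every library of both groups, and COL3A1 and DCN in every quizalofop-p-ethyl 1 mM library. For VIM and EPCAM, as for GSTP1, a failed estimate was not tested.

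Under isoxaflutole and mesotrione at 1 mM the hepatocyte sum was 10400 to 19200 FPKM and 12500 to 20600 FPKM. Isoxaflutole had 1 hepatocyte marker higher and 2 lower of 13 (2.42% of all features passed), and mesotrione 1 higher and 1 lower (0.879% passed). The biliary sum was 513 to 644 FPKM and 444 to 583 FPKM, and the stellate or mesenchymal sum 20.8 to 28.8 FPKM and 21.3 to 33.5 FPKM, all below the Control ranges; the part of these shifts in the members' values was not tested. The hepatocyte marker higher in both was CYP3A4, a drug-oxidising enzyme, which averaged 174 ± 71.8 FPKM with isoxaflutole 1 mM, 10.8 ± 5.08 FPKM with mesotrione 1 mM and 2.76 ± 0.216 FPKM in Control, while no tested glutathione transferase of the 10 passed in either.

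Other glutathione transferases were tested in the same comparison. Of 14 in the table, 8 were tested, and with quizalofop-p-ethyl 1 mM 3 were lower and 1 higher, where 4784 of all 24222 features were lower and 3142 higher. MGST2, a membrane-bound relative of MGST1 that also makes leukotrienes, averaged 8.16 ± 2.22 FPKM at 1 mM and 23.1 ± 1.22 FPKM in Control (log2 fold change -1.43 ± 0.12, adjusted p = 2.55e-13). GSTM1 was lower by -0.92 log2 (adjusted p = 0.00313) and GSTO2, outside the rule for named genes, by -0.38 (adjusted p = 0.00977). MGST3, another membrane-bound form, rose with quizalofop-p-ethyl 1 mM to 49.2 ± 8.61 FPKM and with isoxaflutole 1 mM to 55.3 ± 3.82 FPKM, against 37.1 ± 3.03 FPKM in Control (log2 fold changes 0.38, adjusted p = 0.000657, and 0.56, adjusted p = 5.82e-05). It was the 1 transferase of the 8 that passed with isoxaflutole, and with mesotrione 1 mM none passed in limma (40.6 ± 4.02 FPKM for MGST3, adjusted p = 0.735).

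Genes that supply glutathione were mostly higher. Of 7 synthesis genes 5 rose with quizalofop-p-ethyl 1 mM and none fell, with a median log2 fold change of 1.98 over the 7. Over all 24222 features 3142 rose in this comparison and 4784 fell. SLC7A11 and SLC3A2, the 2 chains of the cystine importer, averaged 48.8 ± 5.85 and 541 ± 79.6 FPKM at 1 mM, against 5.61 ± 0.735 and 46.8 ± 6.31 FPKM in Control. CTH, which makes cysteine from methionine-derived cystathionine, averaged 16.8 ± 7.53 FPKM and 2.81 ± 0.68 FPKM. GCLC and GCLM, the catalytic and modifier subunits of the rate-limiting ligase and outside the rule for named genes, rose by 1.26 and 1.98 log2, while GSS, the last enzyme of the route, had -0.15 (adjusted p = 0.774).

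Recycling of glutathione and its reducing power rose in part, with 3 higher and none lower of 5 tested, where 3142 of all 24222 features were higher. GSR, which reduces oxidised glutathione, averaged 131 ± 5.53 FPKM with quizalofop-p-ethyl 1 mM and 61.7 ± 4.14 FPKM in Control. PGD, an NADPH-making enzyme of the pentose phosphate path, averaged 245 ± 27.4 FPKM and 101 ± 5.12 FPKM, and IDH1, another source of NADPH, rose by 0.66 log2. PGD also passed with isoxaflutole 1 mM (136 ± 8.06 FPKM, adjusted p = 0.000209) and with mesotrione 1 mM (123 ± 0.994 FPKM, adjusted p = 0.0456).

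For the steps after conjugation, of 7 tested exporters 1 was higher and 1 lower, the lower one being ABCC5 with -0.47 log2, a share no larger than the 32.7% of all features that passed, while ABCC2, the canalicular pump for glutathione conjugates, averaged 23.4 ± 7.66 FPKM with quizalofop-p-ethyl 1 mM and 32.3 ± 10.8 FPKM in Control (adjusted p = 0.112). In the mercapturate and breakdown list 7 of 12 tested fell and 1 rose, where 19.8% of all features fell. GGT5, a gamma-glutamyl transferase family enzyme, averaged 2.63 ± 1.56 FPKM at 1 mM and 26.9 ± 5.86 FPKM in Control, and ACY3, an aminoacylase, 0.364 ± 0.0905 FPKM and 3.05 ± 0.553 FPKM. The member that rose was CHAC1, a cytosolic enzyme that degrades glutathione, with 31.4 ± 5.52 FPKM and 1.84 ± 0.578 FPKM.

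Smaller movements in these lists occurred at 1 mM of the other herbicides. With isoxaflutole, SLC3A2 rose by 0.4 log2 and CHAC1 by 0.66, and CBS, which feeds cystathionine to CTH, was lower by -0.66. With mesotrione, SLC7A11 rose by 0.6 log2, GCLC by 0.41 and SLC3A2 by 0.4, and ACY1, another aminoacylase, was lower by -0.38. Adjusted p-values of these 7 ran from 0.00246 to 0.0439 in limma.

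Among 16 regulators tested, 5 rose and 6 fell with quizalofop-p-ethyl 1 mM, where 3142 of all 24222 features rose and 4784 fell. None passed with isoxaflutole or mesotrione at 1 mM in limma. MAFF and MAFG, small partners of NRF2, rose by 3.02 and 2.11 log2. NFE2L2, which encodes NRF2, and its inhibitor KEAP1 rose by 0.73 and 0.56. HNF4A, a factor that maintains hepatocyte genes, averaged 6.89 ± 3.4 FPKM at 1 mM, against 26.6 ± 2.11 FPKM in Control, and NR1I2, the xenobiotic receptor PXR, was lower by -0.99. NFE2L2, KEAP1 and NR1I2 were named outside the rule, for their known link to these genes.

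**Figure D4:**
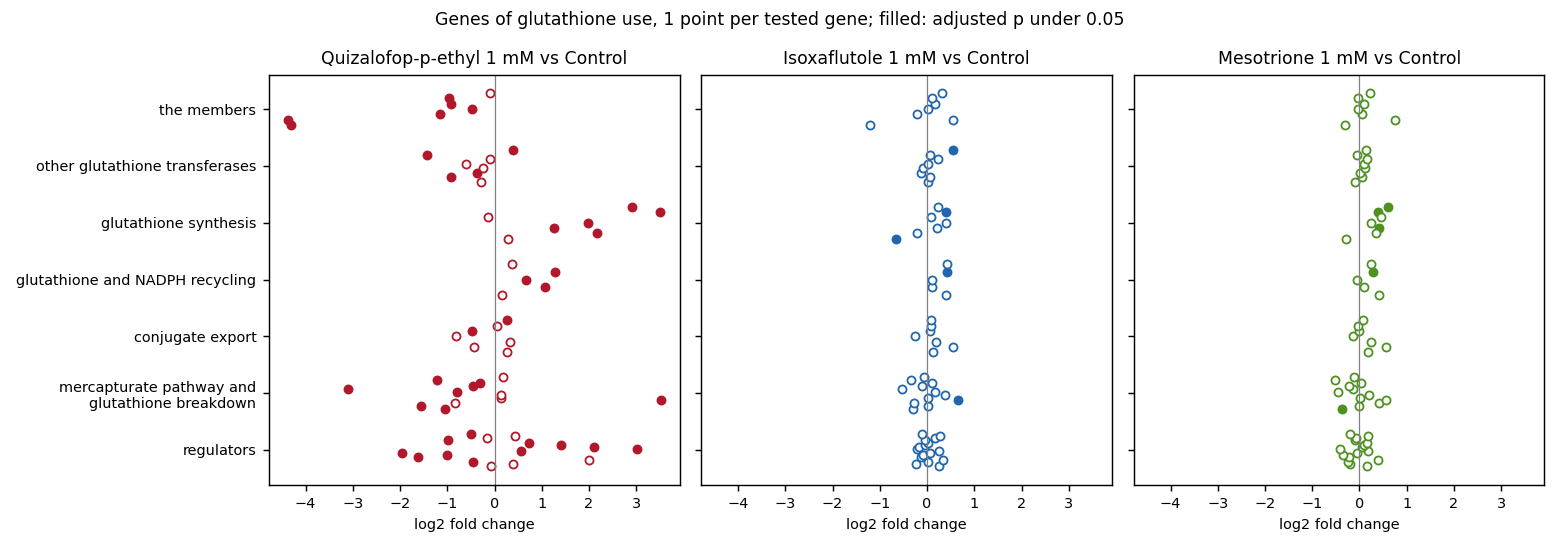
Log2 fold change at 1 mM of each herbicide against Control (horizontal axis) for every tested gene of 7 lists around glutathione; 1 point is 1 gene and filled points passed an adjusted p of 0.05. With quizalofop-p-ethyl 6 of 7 tested members lie filled to the left of 0 while 5 of 7 synthesis genes and 3 of 5 recycling genes lie filled to the right.

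Which genes followed the members most closely was described by Pearson's r of log2(FPKM + 1) over the 49 libraries, searched among 7163 genes; the points share groups, and r within groups is given beside it. GSTA1 was most like UGT2B4, a glucuronidation enzyme, and the fibrinogen genes FGG and FGB (r = 0.926, 0.926 and 0.923; within groups 0.728, 0.719 and 0.708). GSTA2 was most like UGT2B15, HABP2 and TMEM14A (r = 0.93, 0.925 and 0.921; within groups 0.6, 0.514 and 0.513), the last also close to GSTA4 (r = 0.877). GSTM4 was most like ID3 (r = 0.94; within groups 0.795), GSTO1 like FUCA1 (r = 0.951; within groups 0.718) and GSTK1 like ECHS1, an enzyme of fatty acid oxidation (r = 0.817; within groups 0.454). MGST1 was most like TMX4, SERINC1 and LEPROTL1, with r of 0.833, 0.833 and 0.828 over the libraries and 0.774, 0.827 and 0.837 within groups.

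Among the 21 pairs of members r was lower within groups than over all libraries, except for MGST1 with GSTO1, GSTA4 and GSTA1. GSTA1 and GSTA2 had r = 0.786 over 49 libraries and 0.214 within groups, and GSTA1 and GSTO1 0.851 and 0.536. GSTO1 and MGST1 had 0.527 over the libraries and 0.631 within groups, and GSTM4 and MGST1 0.24 and -0.157.

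Depth, estimated from the table, was 7180000 to 34240000 fragments in the 49 libraries, 11360000 to 19760000 with quizalofop-p-ethyl 1 mM and 11540000 to 24420000 in Control, and 3780000 in the library left out, which had 6782 genes at 1 FPKM or more where the others had 17000 to 20320. That library was low in the members too, with 20 FPKM of GSTA1 and 6.59 FPKM of GSTK1.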

How the data were processed

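Per the labels' protocols, ribosomal RNA was removed from total RNA, stranded libraries were made, and 3 pools of them were read as 75 bp pairs; which library was in which pool is not known here. HISAT, HISAT2, StringTie and the build GRCh38 stand in the submitters' processing notes without version or role. The authors deposited 1 table of FPKM values for 239290 transcripts, 40117 of them without a gene name; 24 values just below 0 in 20 of its columns were set to 0 and 1 broken line was rejoined. FPKM removes depth but not the larger error of shallow libraries, and RNA that takes many fragments lowers all other values. For depth, the smallest FPKM step of a library was read off 17521 transcripts with a single exon and a length of 300 to 1500 bp.

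Transcript FPKM were summed by gene name. Replicate 5 of quizalofop-p-ethyl 10 µM was left out for its low depth. Features with at least 1 FPKM in at least 5 libraries (24222) were put on the log2(FPKM + 1) scale and fitted in R 4.3.3 by limma 3.58.1, with 1 mean per group over 49 libraries, trend and robust variance, and Benjamini-Hochberg adjustment within each of 15 comparisons; a fold change on this scale understates that of low genes. The procedure was tested on simulated data. The 10 members, the gene lists and the markers were chosen with earlier results of these data known. In each other list up to 3 genes past the threshold with the largest log2 fold change were named for each 1 mM comparison, and for each member the 3 genes of 5 FPKM or more with the highest correlation were found.

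Alternatives were the left-out library, median-ratio scaling, no filter, a pseudocount of 0.1, a block of sample-number runs, each pair of groups alone, unnamed transcripts counted with a locus that has 1 named gene, 1 transcript per gene, copies summed, and each library left out in turn. Protein sequences were not used here, and values of a few list genes are not reported here.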

Additional observations from a re-analysis of the deposited data

Results flagged for a closer look

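At 1 mM the effect of quizalofop-p-ethyl differed from that of isoxaflutole by a direct test in limma for 7 members, where 29.7% of all features passed. The log2 difference was -3.12 for GSTA1, -4.92 for GSTA2, -0.95 for GSTA4, -1.1 for GSTM4, -0.48 for GSTK1, -1.08 for GSTO1 and -0.41 for MGST1. The MGST1 libraries overlapped, and its call was lost without replicate 5 of quizalofop-p-ethyl (adjusted p = 0.0938, limma). From that of mesotrione the effect of quizalofop-p-ethyl differed for 6 members, where 30.2% of all features passed, by -4.01 for GSTA1, -5.14 for GSTA2, -1.21 for GSTA4, -1.03 for GSTM4, -0.45 for GSTK1 and -0.93 for GSTO1.

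Single libraries lay far from the other 3 or 4 of their group in 12 of 96 member and group combinations, where chance gives about 1 in 20; 6 of the 12 are GSTP1 groups in which a lone value above 0 always stands apart, so the count is not read as an excess. GSTA2 was low in replicate 1 of mesotrione 0.1 µM, at 26.4 FPKM. Replicate 4 of isoxaflutole 10 µM stood apart in 3 members, high in GSTM3 at 0.194 FPKM and in GSTM4 at 30.6 FPKM and low in GSTO1 at 68.7 FPKM. GSTM4 was high in replicate 1 of mesotrione 1 mM, at 34.2 FPKM, and GSTM3 in replicate 5 of mesotrione 10 µM, at 0.128 FPKM. In 6 groups 1 library had a GSTP1 value and the others were listed at 0: 0.0319 FPKM in quizalofop-p-ethyl 0.1 µM, 0.0506 in quizalofop-p-ethyl 1 mM, 0.0475 in isoxaflutole 0.1 µM, 0.0099 in isoxaflutole 10 µM, 0.0746 in isoxaflutole 1 mM and 0.0406 in mesotrione 0.1 µM, none above the range that 1 fragment makes.

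In data outside the comparisons, the library left out had 0.308 FPKM of GSTP1, against 0 in all 5 Control libraries, at the lowest depth of the series. The unnamed transcripts of the GSTA1 and GSTA2 locus, given as values only, were at 337 FPKM or more in every mesotrione 10 µM library, against 214 to 333 FPKM in Control. The gap is small, and the share of all features without overlap was not counted for this comparison. The whole locus as 1 feature, a choice made after its transcripts were seen, had a log2 fold change of -0.11 (95% interval -0.88 to 0.66) and did not pass.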

How the results depend on the processing

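Counts of members past the threshold stayed within 1.5 times of the reported count in 297 of 298 recounts. The exception was quizalofop-p-ethyl 1 mM against 10 µM, where including the left-out library (all 50 libraries) gave 3 members in place of 6. It turned GSTK1 to 0.22 log2 from -0.56 (adjusted p = 0.701, limma), and that library reads 6.59 FPKM of GSTK1. The 1.5 times rule is a loose one. In 11 of the 15 comparisons the reported count was 0, and a smaller loss of calls still counts as agreement. With 1 transcript per gene, GSTK1 and GSTO1 lost their calls for quizalofop-p-ethyl 1 mM against Control. With single libraries left out the counts were 6 against Control, 6 to 7 against isoxaflutole, 6 to 7 against mesotrione, 6 against 10 µM and 0 in the other 11 comparisons. In the fit with all 50 libraries GSTK1 lost its call against Control (-0.47 log2, adjusted p = 0.403). Of 2086 member values under an alternative, 1948 were classed as the same and 117 as moved, while 15 lost a call, 5 gained a call and 1 reversed. Over all features, all 50 libraries gave 4645 calls for quizalofop-p-ethyl 1 mM against 7926, 80 for isoxaflutole 1 mM against 585 and 26 for mesotrione 1 mM against 213. For isoxaflutole and mesotrione at 1 mM, each pair of groups alone gave 296 and 88 calls, 1 transcript per gene 305 and 101, and adding unnamed transcripts to the named gene of their locus 880 and 365. Under median-ratio scaling isoxaflutole 1 mM had 180 features higher and 410 lower, against 280 and 305. Each run of sample numbers held 1 library of each group, before the exclusion. A block of these runs kept the count of members at 6 against Control. It raised the calls against Control to 8163 for quizalofop-p-ethyl 1 mM, 810 for isoxaflutole 1 mM and 343 for mesotrione 1 mM. Same-run libraries deviated together with a mean r of 0.0172 (216 pairs, lowest -0.123), against -0.00426 for libraries of other runs. For 26 of the 49 libraries the best-matching of the 5 runs was their own, which is more than an even spread over the runs would give. The labels name no batch, so the reported fit has no block, and what the runs stand for was not tested. The titles carry no replicate numbers. Low members (GSTM2, GSTM3, GSTP1) are limited by depth, and GSTA1 and GSTA2 by shared sequence.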
